A study of Mus musculus with 8 samples.

Results

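The genes for the 3 chemokines that bind the receptor CXCR3, Cxcl9, Cxcl10 and Cxcl11, were followed across 8 total RNA libraries of RAW264.7, a macrophage-like cell line of the mouse. They were chosen by name, and all 3 were found among the 55450 genes of the count table. The cells carried a control shRNA that silences nothing (shNS) or an shRNA (shDis3l2) that targets Dis3l2. Dis3l2 is the gene of an exoribonuclease that degrades RNAs bearing added uridines. Each line gave 3 libraries after 4 days in 1 µg/mL doxycycline, a drug often used to induce an shRNA, and 1 library after 4 days without it. Whether either line was 1 clone or a pool of cells is not stated in the labels, and nothing there says that replicates were separate cultures, so the p-values below speak of the spread among the sequenced samples, and that spread may be technical.

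CXCR3 ligands are small secreted proteins that draw activated T cells and NK cells towards the cells that release them. Their genes sit side by side in the mouse genome. In macrophages they are classically induced by interferon-gamma, and Cxcl10 and Cxcl11 also respond to type I interferon and to NF-kB. The study's title names innate immune activation by cellular RNAs as its subject, and these genes are familiar readouts of that response.

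All 3 genes lie on the minus strand of chromosome 5 (GRCm38) within 44.1 kb. Cxcl9 (ENSMUSG00000029417) runs from 92321347 to 92328079, Cxcl10 (ENSMUSG00000034855) from 92346638 to 92348889, and Cxcl11 (ENSMUSG00000060183) from 92359544 to 92365485. The gap between Cxcl9 and Cxcl10 is 18.6 kb, and that between Cxcl10 and Cxcl11 is 10.7 kb. Art3, which encodes a member of the ADP-ribosyltransferase family, is transcribed on the opposite strand across both Cxcl10 and Cxcl11. Its exons overlap those of Cxcl10 by 133 bases. Exons of Cxcl11 overlap the antisense pseudogene Gm2673 by 1582 bases.

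The bases upstream of the start sites are shown because Cxcl9 and Cxcl10, side by side in the genome, gave very different counts. RefSeq's table (GRCm38.p6) held an upstream entry for 2 of the 3 members, Cxcl9 and Cxcl10, and 250 bases before the start are printed 5′ to 3′ on the minus strand. Capitals mark matches to an interferon-stimulated response element (ISRE, searched as 2 copies of GAAA with any 2 bases between them), a gamma-activated site (GAS element, searched as TTCNNNGAA) or the NF-kB consensus, each on both strands.
Cxcl9, chr5:92328080-92328329: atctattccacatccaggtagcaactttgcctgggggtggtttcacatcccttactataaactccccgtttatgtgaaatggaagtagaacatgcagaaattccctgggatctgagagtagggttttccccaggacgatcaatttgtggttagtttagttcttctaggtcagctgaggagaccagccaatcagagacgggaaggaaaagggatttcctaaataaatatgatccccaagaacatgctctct
Cxcl10, chr5:92348890-92349139: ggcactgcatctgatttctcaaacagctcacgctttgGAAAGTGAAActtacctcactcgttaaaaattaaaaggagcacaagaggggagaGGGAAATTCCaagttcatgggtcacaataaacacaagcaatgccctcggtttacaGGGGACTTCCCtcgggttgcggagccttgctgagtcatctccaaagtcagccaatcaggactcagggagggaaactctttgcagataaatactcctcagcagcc

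The Cxcl10 stretch held 1 ISRE match, GAAAGTGAAA, 213 to 204 bases before the start. It held 3 NF-kB matches: GGGAAATTCC at 159 to 150 bases, and GGGGACTTCC and GGGACTTCCC, which overlap each other, at 104 to 95 and 103 to 94 bases. None of the 3 motifs was found in the Cxcl9 stretch, which says only that these letters are not in that window. Among 32817 promoters of the same length, 2.97% held the ISRE, 7.01% the GAS element and 7.25% the NF-kB consensus. Both the ISRE and the NF-kB consensus were found in 0.162%.

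Cxcl11 differs from its neighbours in annotation. GENCODE M21 lists the gene as a polymorphic pseudogene with 2 transcript models that share a first coding exon (chr5:92363155-92363214, minus strand). The start of their coding sequence is printed because it decides whether the counted RNA can be read as a chemokine, with capitals on the 2 genomic bases (92363177 to 92363178) that the coding model skips.
Cxcl11-202: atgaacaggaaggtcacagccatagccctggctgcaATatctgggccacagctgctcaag
Cxcl11-201: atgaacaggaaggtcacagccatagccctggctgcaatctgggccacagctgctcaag

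With these 2 bases, Cxcl11-202 reads 36 codons before its first stop. Without them, Cxcl11-201 reads 99 codons. As background, the reference genome is that of C57BL/6 mice, which carry a frameshifted Cxcl11, while RAW264.7 cells came from a mouse of BALB/c background. Which allele the cells carry was not examined here, so a Cxcl11 value below is an RNA level only.

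Libraries held 30341823 to 45557804 counts in 17388 to 18267 genes. Levels are in CPM after TMM scaling, and 1 count is 0.02286 to 0.03148 CPM, and a library with 0 counts is given a floor of 3 counts. Intervals and floors cover counting error only. The targeted gene Dis3l2 was at 33, 28.7 and 22 CPM in shNS and at 12, 13.5 and 14.9 CPM in shDis3l2 with doxycycline, with no overlap (log2 fold change -1.05 ± 0.19 SE, edgeR adjusted p = 0.0216). Without doxycycline it was at 29.7 CPM in shNS and 28.6 CPM in shDis3l2. The library of shNS replicate 2 with doxycycline and that of shNS without doxycycline stood apart: Ackr3 was at 261 and 199 CPM there and at 0 in the other 6 libraries.

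The cells' macrophage label was checked against 10 markers. Csf1r, the CSF-1 receptor, was at 1190 to 2410 CPM and Lyz2, lysozyme, at 2040 to 6950 CPM over the 8 libraries. Mertk, also among the 10, was at 0 CPM in every shDis3l2 library. In shNS it was at 0.598, 41.5 and 0.892 CPM with doxycycline and 46.6 CPM without, high only in the libraries that stood apart. Among the libraries with doxycycline, edgeR called none of the 10 higher in shDis3l2 than in shNS and 1 lower (2.13% and 4.01% over all tested genes). The lower gene was Adgre1, which encodes F4/80 (log2 fold change -2.70, edgeR adjusted p = 0.0368). Without doxycycline Adgre1 was at 78.8 CPM in shNS and 5.01 CPM in shDis3l2. The 10 summed to 8040 to 12000 CPM in shNS and 7020 to 9800 CPM in shDis3l2 with doxycycline, and to 6840 and 6510 CPM without. Of 6 markers of T cells, the main targets of these chemokines, Cd3e, Cd3g and Cd8a had 0 counts in every library, and the sum was 1.79 to 3.08 CPM in shNS and 1.49 to 2.03 CPM in shDis3l2 with doxycycline, nearly all of it Lck. Of 5 NK cell markers, Ncr1, Klrb1c, Gzma and Gzmb had 0 counts in every library. Markers of B cells, fibroblasts, endothelial and epithelial cells summed to at most 1.24 CPM in a library. The neutrophil gene S100a8 was at 19.1 and 40.9 CPM in the 2 shNS libraries that stood apart and at most 0.403 CPM elsewhere. Siglech, a marker of plasmacytoid dendritic cells, was at 0 in all 3 shNS libraries with doxycycline. In shDis3l2 it was at 0.617, 0.875 and 0.502 CPM with doxycycline, the direction of Cxcl10, and at 0.89 CPM without. Zbtb46 went the other way, at 3.37, 4.01 and 2.07 CPM in shNS and 1.9, 1.61 and 1.27 CPM in shDis3l2 with doxycycline. Xcr1 was at most 0.283 CPM in a library, and Flt3 and Clec9a stayed at or below 0.0591 CPM. The 5 dendritic cell markers together summed to 2.13 to 4.16 CPM in shNS and 1.98 to 2.7 CPM in shDis3l2. The part of these markers in the results below was not tested. In bulk RNA, more cells expressing a gene and more RNA per cell cannot be told apart.

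Cxcl10 had the most counts of the 3 in every library and was far higher in shDis3l2. With doxycycline, shNS replicates 1 to 3 held 12, 2 and 9 counts, or 0.378, 0.0585 and 0.259 CPM. The shDis3l2 replicates held 1446, 835 and 594 counts, or 33.1, 24.4 and 17.6 CPM. Every shDis3l2 library was far above every shNS library, and the groups did not overlap. The means were 0.232 ± 0.161 CPM in shNS and 25 ± 7.77 CPM in shDis3l2 (SD, n = 3). The ratio of summed counts was 113 (95% counting interval 74.9 to 178).

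In edgeR's quasi-likelihood test over 13752 genes, the log2 fold change of Cxcl10 was 6.75 ± 0.54 (SE), with an adjusted p of 0.00192. By fold change it stood at rank 20. With 12, 2 and 9 counts in shNS against a minimum count of 10, Cxcl10 passed the filter on low counts only through the shDis3l2 libraries. As background, 2.13% of the tested genes were called higher in shDis3l2 (293) and 4.01% lower (552), and the median log2 fold change of all genes was 0. Groups without overlap and higher in shDis3l2 were found for 13.4% of the genes. For a single gene, 3 libraries against 3 cannot give an exact two-sided permutation p below 0.1, which is what each member gave. Without shNS replicate 2, the log2 fold change of Cxcl10 was 6.29 (edgeR adjusted p = 4.95e-04).

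Cxcl11 followed the same pattern with fewer counts. It had 0 counts in all 3 shNS libraries with doxycycline, where the floor was 0.0945, 0.0878 and 0.0863 CPM. In shDis3l2 it had 340, 151 and 109 counts, or 7.77, 4.41 and 3.22 CPM (mean 5.13 ± 2.36 SD, n = 3). The groups did not overlap, and Cxcl11 was at least 57.4-fold higher in shDis3l2 than the floor of 3 counts per shNS library. With 0 counts in shNS, the gene passed the filter on low counts only through the shDis3l2 libraries. Its edgeR adjusted p was 0.00551. Cxcl11 and Cxcl10 ordered the 3 shDis3l2 libraries alike, with replicate 1 highest and replicate 3 lowest in both.

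Cxcl9, the ligand most tied to interferon-gamma, was hardly detected. It had 0 counts in all 4 shNS libraries and in shDis3l2 without doxycycline, and 2, 1 and 3 counts in the shDis3l2 libraries with doxycycline, or 0.0457, 0.0292 and 0.0886 CPM. All of these were at or under the floor of 3 counts, so no fold is given, and the gene did not pass the filter on low counts. With no such filter, edgeR gave an adjusted p of 0.276 over 21623 genes. A difference in Cxcl9 was not detectable at this depth.

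**Figure D1:**
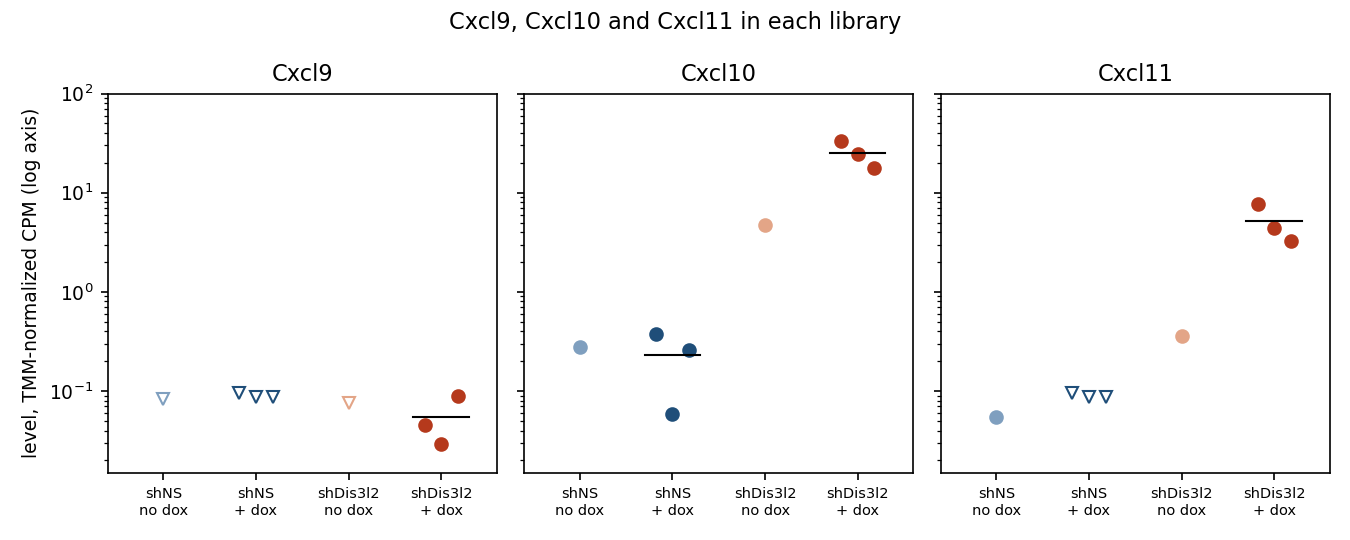
Level of Cxcl9, Cxcl10 and Cxcl11 (TMM-normalized CPM, log axis) in each of the 8 libraries by line and doxycycline; filled circles are libraries with a count, open triangles mark the floor of 3 counts in libraries with 0 counts, and bars are means of 3 libraries. The 3 shDis3l2 libraries with doxycycline sit between 17.6 and 33.1 CPM for Cxcl10 and between 3.22 and 7.77 CPM for Cxcl11, above the shDis3l2 library without doxycycline at 4.75 and 0.356 CPM.

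The lines already differed without doxycycline, with 1 library each and hence no test. Cxcl10 had 10 counts in shNS (0.275 CPM) and 187 in shDis3l2 (4.75 CPM), a ratio of 17.3 (counting interval 9.21 to 36.7). Cxcl11 had 2 counts in shNS (0.0549 CPM) and 14 in shDis3l2 (0.356 CPM), a ratio of 6.48 (1.49 to 58.7). Both ratios compare these 2 libraries, not the conditions, and the shNS library is among those that stood apart. Their log2 ratios with a prior count of 2 were 3.86 and 1.90, against a median of 0 over 15250 genes, of which 9.29% were more than 2-fold higher in shDis3l2. Dis3l2 itself was at like levels in the same 2 libraries, as given above.

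Within shDis3l2, the libraries with doxycycline were higher than the library without it. The ratio of summed counts was 5.41 for Cxcl10 (4.66 to 6.3) and 15.1 for Cxcl11 (8.91 to 27.7). In the edgeR fit over all 8 libraries, which assumes that the lone library varies like the others, the log2 fold changes were 2.39 ± 0.69 (SE; unadjusted p = 0.011) and 3.84 ± 0.81 (unadjusted p = 0.00463). Both had an edgeR adjusted p of 1, and edgeR called 0% of the 15250 genes, with 504 under an unadjusted p of 0.05. DESeq2 called 64 genes and gave adjusted p-values of 0.00379 for Cxcl10 and 0.00336 for Cxcl11. The call for doxycycline in this line thus depends on the tool, while the 3 libraries with doxycycline all lie above the single one without.

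In shNS the values with and without doxycycline overlapped. Cxcl10 stood at 0.378, 0.0585 and 0.259 CPM with doxycycline and 0.275 CPM without, a ratio of summed counts of 0.832 (0.381 to 1.96). The library without doxycycline lay inside the range of the 3 with it. The log2 fold change was -0.25 ± 0.82 (SE), with an edgeR adjusted p of 1, and it was 0.18 without shNS replicate 2. Cxcl11 had 0 counts in the 3 libraries with doxycycline and 2 counts in the library without, all under the floor, so no fold is given. In shNS edgeR called 0% of the genes (646 under an unadjusted p of 0.05; DESeq2 called 74), and without shNS replicate 2 it called 544.

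The difference between the doxycycline effects of the lines was tested directly. For Cxcl10 it was 2.65 ± 1.05 (SE) on the log2 scale, with an unadjusted p of 0.0405 and an edgeR adjusted p of 1. For Cxcl11 the unadjusted p was 0.00618 and the edgeR adjusted p was 1. No size is given for Cxcl11, because its shNS counts are 0 and 2, and its p-values rest on those same counts. Of all genes, edgeR called 0%, with 577 under an unadjusted p of 0.05 and 35 called by DESeq2, which gave Cxcl10 an adjusted p of 0.353. Without shNS replicate 2, edgeR called 121 genes, and Cxcl10 was at 2.21 (adjusted p = 0.331). These comparisons share libraries with each other and are set side by side only.

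Per kilobase, Cxcl10 was the higher of the pair in all 4 shDis3l2 libraries. Over the merged exon lengths of 2252 and 3794 bases, its level was 7.17, 9.32 and 9.18 times that of Cxcl11 in the libraries with doxycycline and 22.5 times in the library without. Over the coding transcripts Cxcl10-201 (1094 bases) and Cxcl11-201 (1581 bases), the ratios were 6.15, 7.99, 7.88 and 19.3.

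The balance between Cxcl10 and Cxcl11 thus differed between the shDis3l2 libraries with and without doxycycline. Cxcl11 made up 19% (exact Clopper-Pearson 95% interval 17.2 to 20.9), 15.3% (13.1 to 17.7) and 15.5% (12.9 to 18.4) of their summed counts in the 3 libraries with doxycycline. It made up 6.97% (3.86 to 11.4) in the library without. The last interval lies below the other 3, but a group of 1 library has no spread of its own, and the difference was not tested. In shNS the share rested on 2 to 12 counts a library, and its intervals reached from 0 to at least 26.5%, or from 2.09 to 48.4% in the library without doxycycline.

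**Figure D2:**
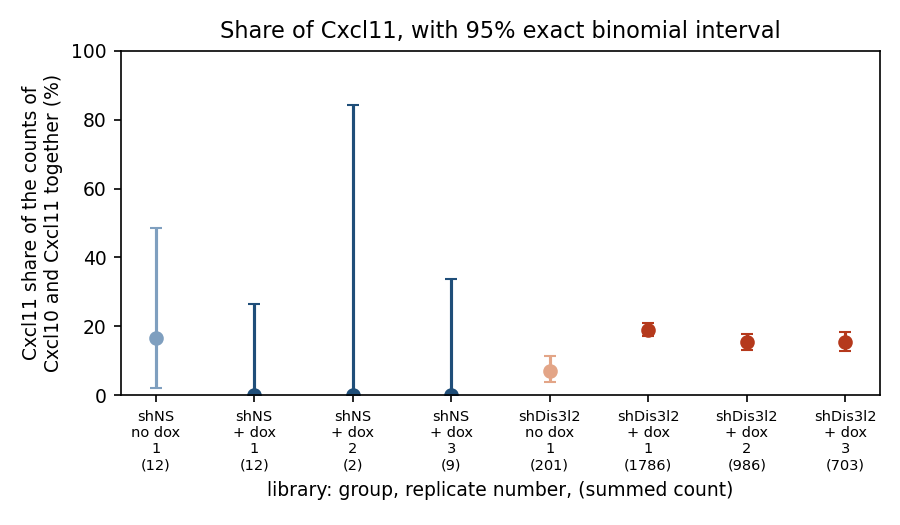
Share of Cxcl11 in the summed counts of Cxcl10 and Cxcl11 (%, y axis) in each library (x axis, with the summed count in brackets); points are shares and bars their 95% exact binomial intervals. The shDis3l2 libraries with doxycycline lie at 15.3 to 19%, the shDis3l2 library without it at 6.97%, and the shNS intervals are wide because they hold at most 12 counts.

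Around the cluster no tested gene passed the edgeR threshold over the 6 libraries with doxycycline. Of 33 other genes within 500 kb, 18 had a count and 12 were tested with doxycycline, and edgeR called none higher and none lower, with a median log2 fold change of -0.03. Sdad1, the nearest tested gene, starts 38.4 kb from Cxcl10 and was at 84.8 ± 4.43 CPM in shNS and 109 ± 7.53 CPM in shDis3l2 (SD, n = 3), a log2 fold change of 0.36 (adjusted p = 0.139 in edgeR). Naaa, a lysosomal amidase gene, was at 0.35 (adjusted p = 0.615) and at 0.05 without shNS replicate 2, Nup54, a nuclear pore gene on the other side, at 0.04 (0.922), and Scarb2, which encodes the lysosomal protein LIMP-2, at -0.32 (0.337). The value farthest from 0 was that of the kinase gene Cdkl2, at -1.55 (edgeR adjusted p = 0.0595), with all 3 shDis3l2 libraries below the shNS ones. Cdkl2 was called lower by DESeq2 (adjusted p = 0.00105) and by edgeR with no filter on low counts (-1.52, 0.0458) or without shDis3l2 replicate 1 (-1.22, 0.0477). The remaining 7, Rchy1, Gm43039, Thap6, Gm26582, G3bp2, Uso1 and Gm15710, ran from -1.06 to 0.65, and Rchy1, Gm43039, G3bp2 and Nup54 were so close to 0 that another scaling or a left-out library turned their sign.

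Art3, which spans Cxcl10 and Cxcl11 on the opposite strand, moved in the same direction at a much lower count. It had 0, 1 and 1 counts in shNS and 13, 7 and 10 in shDis3l2 with doxycycline, and 1 and 3 counts without. The ratio of summed counts with doxycycline was 13.5 (3.43 to 117), and the gene did not pass the filter. The library kit keeps strand, per the labels' protocols, but the strand setting of the counting is not given in the sources used here. Without it, reads from the 133 shared exon bases cannot be told apart. Gm2673, antisense to Cxcl11, had 1 count in all libraries together.

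**Figure D3:**
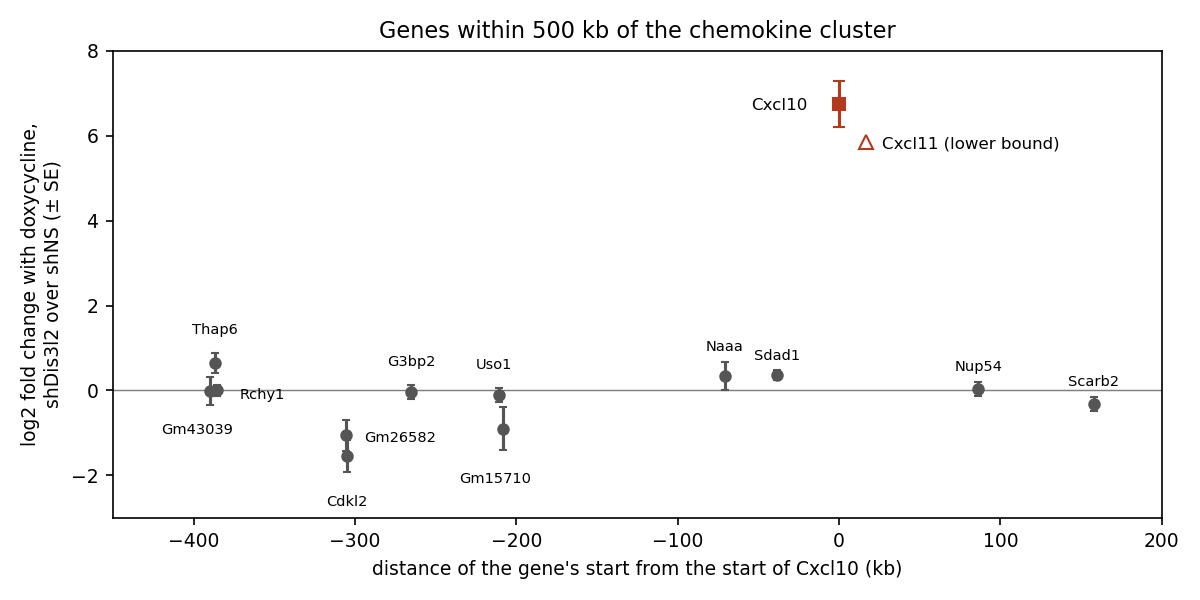
Log2 fold change of shDis3l2 over shNS with doxycycline (y axis, bars ± SE) for the 12 tested genes within 500 kb, by distance of their start from the start of Cxcl10 (x axis, kb). Cxcl10 (square) stands at 6.75 and Cxcl11 (open triangle) at the log2 of its lower bound of 57.4-fold, while the 12 neighbours (circles) lie between -1.55 and 0.65.

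On the receiving side of these chemokines, no receptor or processing gene rose. Of 7 genes listed, 5 were tested, and 0 rose and 1 fell by edgeR (2.13% and 4.01% over all tested genes). The median log2 fold change of the 5 was -1.70. Cxcr3, the receptor itself, was at 1.92, 2.28 and 3.40 CPM in shNS and 3.52, 3.36 and 2.81 CPM in shDis3l2 with doxycycline, and at 2.28 and 2.44 CPM without. Its groups overlapped (0.35, adjusted p = 0.574). Cxcr4, the receptor of CXCL12, fell from 11, 17.2 and 4.81 CPM to 0.755, 0.905 and 1.09 CPM, with no overlap (-3.58, adjusted p = 0.00962). That call was lost without shDis3l2 replicate 1 (adjusted p = 0.0577) or replicate 2 (0.0608).

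Ackr3, an atypical receptor that takes up CXCL11, was detected in the 2 shNS libraries that stood apart and had 0 counts elsewhere. Dpp4, the peptidase that trims CXCR3 ligands, had at most 0.0576 CPM in a library. Sdc1 and Sdc4, which carry heparan sulfate chains that hold chemokines at the cell surface, were at -1.70 (adjusted p = 0.129 in edgeR, 0.00372 in DESeq2) and 0.20 (0.863 in edgeR). The value of Sdc1 is also the median of the 5 tested genes, and it was -0.82 without shNS replicate 3 (edgeR adjusted p = 0.0636), the library in which Sdc1 was highest. Mmp9, a protease that can cleave CXC chemokines, was at -2.39 (adjusted p = 0.205 in edgeR, 0.037 in DESeq2), or -2.91 without shNS replicate 1 (0.0257 in edgeR). Sdc4 ran from -0.12 without shNS replicate 2 to 0.83 without shNS replicate 3.

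Among the interferons that induce these chemokines, hardly any RNA was counted. Ifna1, Ifna2, Ifna4, Ifna5, Ifng, Ifnl2 and Ifnl3 had 0 counts in every library, which allows up to 3 counts each. Ifnb1 had 1 count in shDis3l2 replicate 1 with doxycycline, 2 in shDis3l2 without doxycycline and 0 elsewhere. Of the 9 tested receptors, kinases and inhibitors of interferon signalling, 1 rose and 0 fell by edgeR (2.13% and 4.01% over all tested genes). The median log2 fold change of the 9 was 0.26. The 1 that rose was Ifnar2, a chain of the type I interferon receptor, at 86.4, 68.4 and 93 CPM in shNS and 129, 132 and 143 CPM in shDis3l2, without overlap (0.71, adjusted p = 0.0373). Its adjusted p was 0.065 without shNS replicate 2 and 0.0802, 0.146 and 0.141 without shDis3l2 replicates 1, 2 and 3. Leaving out 1 library gave 0 to 2 of the 9 called higher, with 0 without shDis3l2 replicate 2 or 3 and 2 without shNS replicate 3. Socs1, a feedback inhibitor of JAK kinases, was at 1.18 (adjusted p = 0.0878), Ifngr2 at 0.65 (0.161) and Jak2 at 0.81 (0.231).

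Some transcription factors that act on the ligand promoters were higher. All 20 listed were tested, and edgeR found that 4 rose and 0 fell (2.13% and 4.01% over all tested genes). The median log2 fold change of the 20 was 0.49. Irf9, which binds the ISRE as part of a complex, was at 36.1, 19.8 and 22.3 CPM in shNS and 73.4, 62.2 and 63.8 CPM in shDis3l2 (1.35, adjusted p = 0.0207). Every shDis3l2 library was above every shNS library.

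Irf7, itself an interferon-stimulated gene, was at 25.5, 4.39 and 7.74 CPM in shNS and 182, 159 and 239 CPM in shDis3l2, again without overlap (3.94, edgeR adjusted p = 0.0283). Nfkb1, which encodes a precursor of an NF-kB subunit, was at 0.83 (adjusted p = 0.0379). The calls of Irf7 and Irf9 were lost without shNS replicate 3 and without each shDis3l2 replicate. That of Nfkb1 was lost without shNS replicate 1 or 2 and without each shDis3l2 replicate. Leaving out shDis3l2 replicate 1, 2 or 3 left 1 of the 20 called higher, and leaving out shNS replicate 3 gave 7.

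Of 16 tested sensors, adaptors and kinases upstream of interferon, edgeR called 7 higher and 1 lower (2.13% and 4.01% over all tested genes). The median log2 fold change of the 16 was 0.26. The 1 that fell was Tlr4, the receptor for lipopolysaccharide. Zbp1, which binds Z-form nucleic acid, was at 0.945, 0.38 and 0.691 CPM in shNS and 4.55, 4.67 and 6.68 CPM in shDis3l2 (2.98, adjusted p = 0.00857). The groups did not overlap. Cgas, the cytosolic DNA sensor, was at 1.11 (adjusted p = 0.0107), Ddx58, which encodes the RNA sensor RIG-I, at 1.60 (0.0216), and Ifih1, which encodes MDA5, at 1.12 (0.0258). Without shDis3l2 replicate 2 or 3 none of Cgas, Ddx58 and Ifih1 was called, and without replicate 1 Ddx58 and Ifih1 were not. The number that rose was 4 without shNS replicate 2 or 3, 2 without shDis3l2 replicate 1, and 1 without shDis3l2 replicate 2 or 3. In each of these cases Tlr4 was not called.

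Genes induced by the same signals as the chemokines were mostly higher. Of 23 type I interferon-stimulated genes tested, edgeR called 19 higher and 0 lower (2.13% and 4.01% over all tested genes). Their median log2 fold change was 2.44, and 22 were higher without overlap between the groups, against 13.4% of all tested genes. Ifit1, an RNA-binding antiviral gene, was at 1.35, 0.615 and 0.95 CPM in shNS and 11, 15.7 and 18.3 CPM in shDis3l2 (3.95, adjusted p = 0.00232). Oasl2 was at 3.61 and the exonuclease gene Isg20 at 2.99 (adjusted p = 0.00357 for each), and Rsad2, which encodes viperin, at 3.09 (0.00633). Without shDis3l2 replicate 1, 2 or 3 the number called higher was 11, 10 or 9. Without shNS replicate 2 it was 20.

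Without doxycycline, 9.29% of 15250 genes were more than 2-fold higher in the shDis3l2 library than in the shNS library. Of the same 23 genes, 18 were, with a median log2 ratio of 2.32. Cxcl10, at 3.86, stood above that median and Cxcl11, at 1.90 from 14 and 2 counts, below it. The shNS library used here is among those that stood apart. Over the same 23 genes, the median log2 fold change with doxycycline was 1.43 in shNS and 1.4 in shDis3l2. No replicate check exists for these ratios.

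Genes associated with interferon-gamma were split. Of 17 tested, edgeR called 8 higher and 2 lower (2.13% and 4.01% over all tested genes), with a median log2 fold change of 1.18. The 8 were GTPases of the IRG and GBP families, which act on pathogen vacuoles: Tgtp2 was at 5.43 (adjusted p = 6.74e-04), Irgm1 at 1.29 (0.002), Igtp at 1.66 (0.00504) and Iigp1 at 4.15 (0.00648). The 2 that fell were Ciita, the master regulator of MHC class II, and Nos2, the inducible nitric oxide synthase. Without shDis3l2 replicate 1, 2 or 3 the counts were 7, 4 and 4 higher, with 0 lower in each. Without shNS replicate 1 they were 9 higher and 1 lower. Cxcl9, not in this list, was near the floor in all libraries, as described above. Cxcl10 and Cxcl11, also classically induced by interferon-gamma, were higher in shDis3l2.

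No other chemokine was called higher over the 6 libraries. Of 12 other CXC genes, 8 had 0 counts in every library and 4 were tested. Of these 4, edgeR called 0 higher and 1 lower (2.13% and 4.01% over all tested genes). Their median log2 fold change was 1.65. Pf4, platelet factor 4, was the 1 that fell, from 0.378, 0.673 and 0.806 CPM to 0.0457, 0 and 0 CPM (adjusted p = 0.0179). Its call was lost without shDis3l2 replicate 2 or 3. Cxcl14 was at 0.189, 0.41 and 4.89 CPM in shNS and 78.5, 54.7 and 70.7 CPM in shDis3l2, without overlap (5.21, adjusted p = 0.0599). Cxcl16, the ligand of CXCR6, was at 74.4, 1.96 and 63.7 CPM against 235, 203 and 210 CPM (2.21, adjusted p = 0.329), with shNS replicate 2 lowest. Without shNS replicate 2 or 3, 2 of the 4 were called higher. Cxcl2, a neutrophil attractant, was at 1.08 (adjusted p = 0.451).

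Of 21 CC and C chemokines, 10 had 0 counts in every library and 8 were tested. By edgeR 0 rose and 0 fell, with a median log2 fold change of -1.70. Ccl6 had the smallest p among them (-8.14, adjusted p = 0.182), at 1.23, 903 and 2.62 CPM in shNS and 1.55, 0.73 and 0.886 CPM in shDis3l2. Without shNS replicate 2 it was at -0.85 (adjusted p = 0.428). Ccl3, an inflammatory chemokine, was at -1.99 (adjusted p = 0.291), at 30.7, 166 and 53.2 CPM against 44, 8.49 and 10.2 CPM, with overlap. It ran from -1.0 without shNS replicate 2 (edgeR adjusted p = 0.566) to -3.15 without shDis3l2 replicate 1 (0.117).

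**Figure D4:**
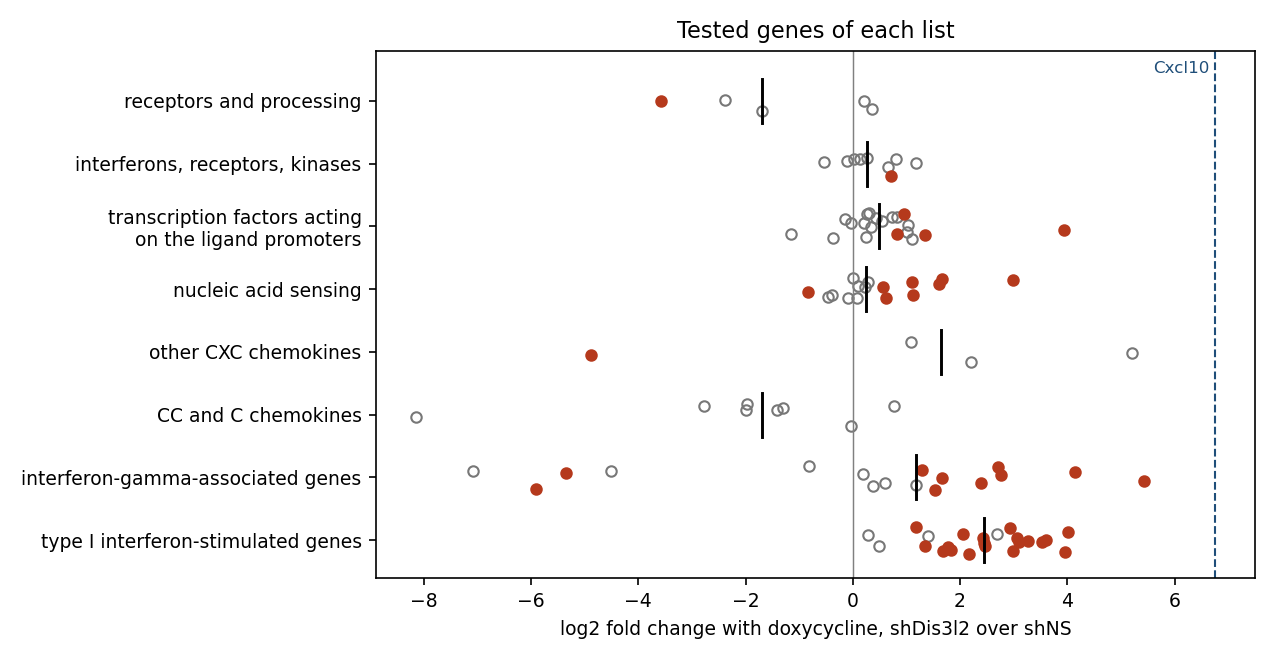
Log2 fold change of shDis3l2 over shNS with doxycycline (x axis) for the tested genes of each list (rows); filled points passed an edgeR adjusted p of 0.05, open points did not, black ticks are list medians and the dashed line is Cxcl10. Type I interferon-stimulated genes centre on 2.44 with 19 of 23 called higher, CC and C chemokines on -1.70 with none called, and Cxcl10 at 6.75 lies to the right of every gene plotted.

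Genes whose levels followed each chemokine most closely were found by Pearson's r of log2(CPM + 0.5) over the 8 libraries, among 10283 genes with a mean count of at least 50. The 8 points fall into the study's 4 groups and share libraries, so r is a description. Cxcl10 and Cxcl11 had an r of 0.965 with each other. For Cxcl10 the 5 highest were Tgtp2 (0.992), the apolipoprotein L gene Apol9a (0.988), Cox5a (0.987), Atp5l (0.985) and Wrnip1 (0.983). Apol9a was at 0.567, 0.117 and 0.345 CPM in shNS and 30, 28.8 and 24.5 CPM in shDis3l2 with doxycycline, and at 0.0549 and 9.74 CPM without. As for Cxcl10, the shDis3l2 library without doxycycline lay between the shNS libraries and the shDis3l2 libraries with doxycycline.

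Cox5a, a subunit of cytochrome c oxidase, differed less between the lines, at 0.67 on the log2 scale (adjusted p = 0.0257 in edgeR). Atp5l, a subunit of ATP synthase, was at 0.65 (0.0309) and Wrnip1 at 0.25 (0.269). The calls of Cox5a and Atp5l were lost without shNS replicate 2 or 3 and without each shDis3l2 replicate.

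For Cxcl11 the 5 highest included Cacng8 (r = 0.991), the helicase gene Ddx24 (0.987), Daxx (0.984) and Irgm1 (0.980). Cacng8 was at 1.26, 1.55 and 1.5 CPM in shNS and 10.5, 7.38 and 8.13 CPM in shDis3l2 with doxycycline, and at 1.87 and 2.29 CPM without (2.59, edgeR adjusted p = 0.00292). The library of shDis3l2 without doxycycline lay near the shNS libraries for Cacng8. Daxx, an interferon-responsive histone chaperone gene, was at 0.98 (adjusted p = 0.0108), a call lost without shDis3l2 replicate 2 (0.0521). Ddx24 was at 0.50 (0.0463), a call lost without any 1 of the 6 libraries.

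**Figure D5:**
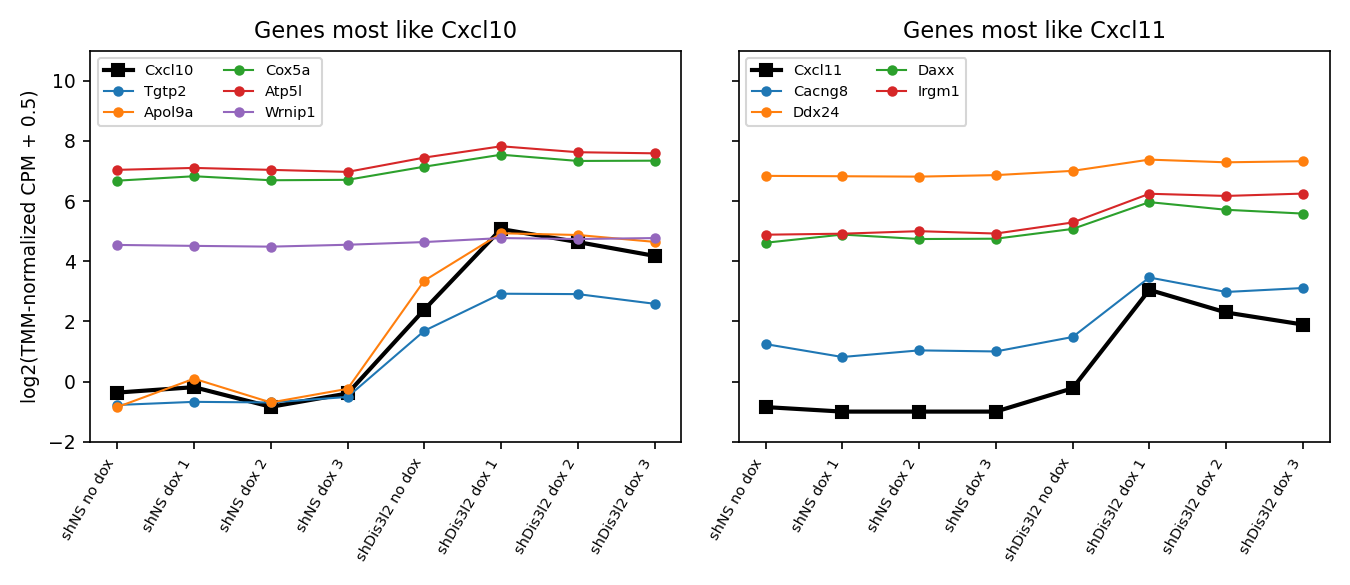
Log2(CPM + 0.5) (y axis) in the 8 libraries (x axis) of Cxcl10 (left) or Cxcl11 (right), in black, with 5 (left) or 4 (right) of the 5 genes of highest r. Cxcl10, Tgtp2 and Apol9a are already raised in the shDis3l2 library without doxycycline. On this scale, that library in the right panel lies closer to the shNS libraries than to the 3 shDis3l2 libraries with doxycycline. For Cxcl11 the offset of 0.5 exceeds its level in that library, 0.356 CPM, and draws it towards shNS.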

How the data were processed

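Per the labels' protocols, total RNA was depleted of ribosomal RNA, made into stranded libraries and read as pairs. Tools named are cutadapt, STAR 2.7 and RSEM, with GRCm38 and mm10 as builds, per the submitters' processing notes. Which RSEM and cutadapt versions, gene models and strand setting were used was not given in the sources used here. Values were deposited by the authors as RSEM expected counts in 1 table, not normalized. All 55450 identifiers matched GENCODE M21, which gave names and coordinates.

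Expected counts were rounded, which changed 4.68 to 5.24% of values, filtered by filterByExpr (minimum count 10), scaled by TMM and tested with edgeR 4.0.16 (quasi-likelihood, robust, two-sided, Benjamini-Hochberg over all tested genes, threshold 0.05; R 4.3.3); the script was tested on simulated data. The lines were compared over 6 libraries (13752 genes), and doxycycline over all 8 as 4 groups (15250 genes, 4 residual degrees of freedom). Lone libraries were compared by ratio (prior count 2). Alternatives were other scalings, filters, DESeq2 1.42.0, a replicate block and left-out libraries. Members, lists and tests were chosen with earlier results of these data known. Named genes were the members, genes within 500 kb, all receptors, up to 4 genes of smallest adjusted p per list (2 where none passed) and the 5 most alike. Markers, genes that fell and libraries' landmarks were named after their values were seen. 1 gene that the rule names is not reported here. No 2 libraries of a group agreed within sampling noise.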

Additional observations from a re-analysis of the deposited data

How the results depend on the processing

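With doxycycline, Cxcl10 stayed higher in shDis3l2, with an edgeR or DESeq2 adjusted p under 0.05, in every alternative run for that comparison. Cxcl11 did too, but it had 0 counts in all 3 shNS libraries with doxycycline. No alternative could turn its direction, so its result is no check. Leaving out 1 library at a time gave 6.29 to 7.29 for Cxcl10 (log2). The number of genes called in that comparison was 845, 1749 by DESeq2, 421 with the replicate number as a block, and 203 to 1157 without 1 library. Same-numbered libraries correlated at -0.13, 0.03 and 0 in their deviations, and differently numbered ones at -0.12 to 0.1. With so few libraries a group, these values cannot exclude pairing. With DESeq2, the doxycycline effect in shDis3l2 was 2.39 for Cxcl10 and 3.85 for Cxcl11, now past the threshold, and 64 genes were called, against 74 in shNS and 35 for the difference of effects. With no filter, 2 genes were called in shNS and 2 for the difference. Without shNS replicate 2 these were 544 and 121 (0 to 544 and 0 to 121 over the left-out libraries), and Cxcl10 in shNS turned to 0.18, the top of a range from -0.77. The cause was not tested.

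Signs of values near 0 turned as follows (log2, with the range over left-out libraries). Rchy1 was at -0.002 with DESeq2 size factors, -0.0016 with the CPM filter, -0.0024 by DESeq2, -0.00083 with the block and -5e-04 with 8 libraries (-0.06 to 0.08). Gm43039 was at 0.03 by library size and 0.01 unfiltered (-0.17 to 0.22), and G3bp2 at 0.04 and 0.0024 (-0.13 to 0.08). Nup54 ran from -0.04 to 0.19 and Sdc4 from -0.12 to 0.83. A library without doxycycline could not be left out, since its group has 1. Counts under about 3 a library limit Cxcl9, Cxcl11 in shNS and Ifnb1.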
